A study of Arabidopsis thaliana with 12 samples.

Results

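The comparison set 3 libraries made from root meristems after 4 h on dexamethasone (DEX) against 3 control libraries labelled 1 h, across all genes, and so used 6 of the 12 libraries of the study. All 12 libraries came from Arabidopsis thaliana seedlings labelled Col-0 that carry pRPS5A::DOF2.1-GR, the control seedlings included. In it the transcription factor DOF2.1, fused to a steroid-binding part of the glucocorticoid receptor, is under the RPS5A promoter, known for its activity wherever cells divide. Seedlings grew for 5 days at 22 °C before those of the DEX groups were moved to medium with 10 µM DEX, and RNA of 300 pooled root tips made each sample. The labels speak of 3 biological repeats at each time point, and do not give the medium on which control seedlings stood at harvest. The deposited names of the control libraries carry the letters MS, and those of the DEX 4 h libraries the letters DEX. A 4 h control and a DEX-treated line without the construct were not analysed here, so induction of DOF2.1, DEX itself and the 3 h of elapsed time cannot be told apart in this contrast.

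DOF proteins are plant-specific zinc-finger transcription factors that recognise a short AAAG core in DNA, and several of them act in the procambium of the root, the dividing cells from which the vascular tissues arise. DOF2.1 is known to act downstream of the TMO5-LHW transcription factor dimer and cytokinin, which together set the number of procambial divisions. A fusion to the glucocorticoid receptor domain is held in the cytoplasm until DEX binds it, after which it can enter the nucleus. TRN2, named in the title of the study, is a tetraspanin, one of a family of small proteins that cross the membrane several times.

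The DEX 4 h libraries held 14142082, 16149889 and 14630692 counts in all, and the control libraries 16826059, 16749192 and 16167813. Of 28775 loci, 19733 passed the filter on low counts and held 99.95% of all counts. Levels are given as CPM, counts scaled to the usual common library total after adjustment by TMM factors, which align the libraries on the bulk of genes, and they are not corrected for gene length. Changes are log2 fold changes of DEX 4 h over the control with their standard errors. Adjusted p-values are those of the quasi-likelihood test in edgeR, by the method of Benjamini and Hochberg over all genes tested, and "called" means an adjusted p under 0.05. Of the stem cell niche, ground tissue, epidermis, xylem and phloem marker lists, no tested member was at 0 in a whole group.

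Counts were estimates and not all whole, and the counting's strand setting is not given in the sources used here. Of the genes named for the size of their change, TRN2, AT1G69572, HSP17.4, CYS2, PAN, GAD4, AT1G66930 and AGP10 overlap an annotated gene on the opposite strand, with which they may share reads. So do the list genes ACL5, ARR9, ASN1, AT4G10270, AUR2, BHLH38, CDKB1;1, CESA7, CESA8, CKX6, CRD1, CYCD6;1, DREB2A, EBF2, FER1, GH3.9, GL3, GOLS1, GOLS4, GSO1, GUN4, HTA12, HTA13, IAA3, ICU2, LNK2, LUX, MP, NOP56, P5CS1, PORB, PSAH2, RNR2A, SRO5, TCH3, TET6, TET9, TGA4 and VND6. Among the genes named for the size of their change, AT5G24570 and AT4G32208 overlap an annotated gene on the same strand, with which they may also share reads. Overlaps of list genes on the same strand are not given here. Genes whose counts were not whole in the 6 libraries are pointed out below.

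At 4 h 9920 genes were called, which was 50.3% of those tested, with 4876 higher (24.7%) and 5044 lower (25.6%). Most of these changes were small. Of the called genes 5895, or 59.4%, changed by less than 1.5-fold, and the median absolute log2 change of called genes was 0.51. A change of at least 2-fold was called for 1429 genes (7.24%), 619 higher (3.14%) and 810 lower (4.1%). At least 4-fold changes were called for 75 higher and 136 lower genes, and at least 8-fold changes for 17 higher and 20 lower. The libraries of the 2 groups did not overlap for 11682 genes, 59.2% of those tested. The share of genes called rose with their level, from 25.9% of genes under a mean log2 CPM of 1 to 68.5% of those at 7 and over.

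**Figure D1:**
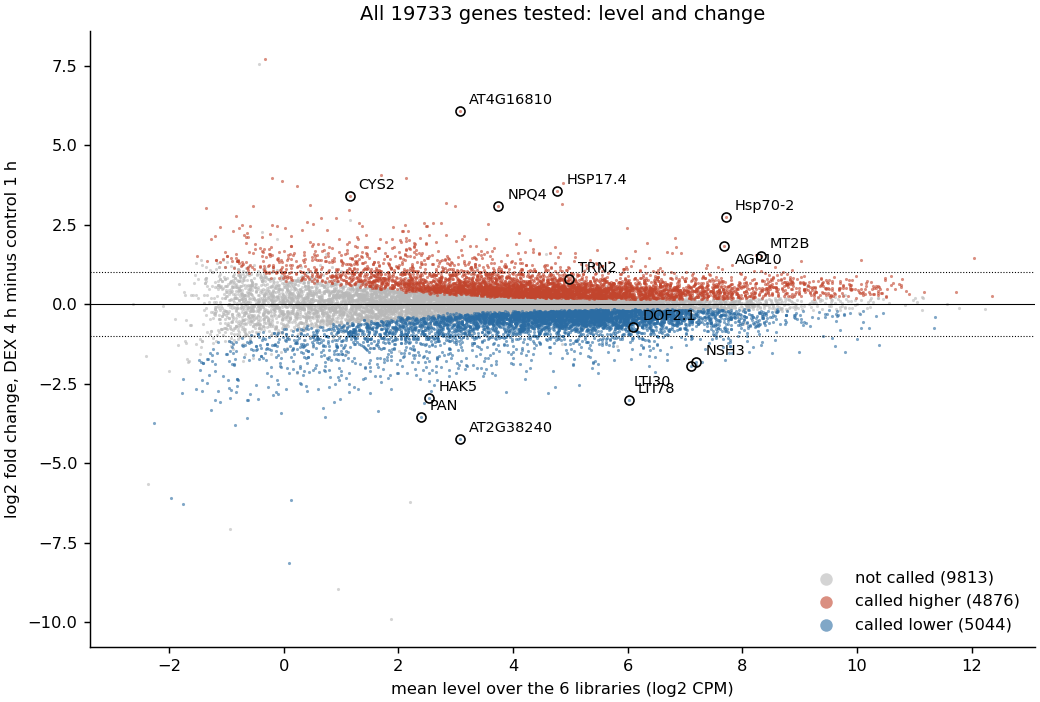
Log2 fold change of DEX 4 h over control 1 h (vertical axis) against mean level over the 6 libraries in log2 CPM (horizontal axis) for each of the 19733 genes tested. The 4876 called higher and 5044 called lower genes lie mostly between the dotted lines that mark a 2-fold change; circled genes are named in the text, and points of low level beyond about 5 on either side have a group with no or almost no counts, where the fitted value is no measure of size.

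The change moved with transcript length. With genes cut by length into 5 classes of equal size, 1930 of the shortest class were called higher and 289 lower, with a median log2 change of 0.37. In the longest class 256 were higher and 2130 lower, with a median of −0.30. Across 19636 genes with an annotated length, Spearman's rho between length and log2 change was −0.454, a description over genes, which are not independent. The pattern stood in each DEX 4 h library. Relative to the mean of the control libraries, the median of the shortest class was 0.36, 0.27 and 0.39 in the DEX 4 h libraries and that of the longest class was −0.31, −0.27 and −0.31. Control libraries, which are set against their own mean and so lie near 0, stayed between −0.02 and 0.01 for the shortest and between −0.04 and 0.04 for the longest. DEX 1 h replicate 3 already had 0.15 and −0.17, while the other DEX 1 h libraries had −0.03 and 0.01 for the shortest and −0.05 and −0.06 for the longest. The part that length or RNA quality has in the changes was not tested. With per-library offsets for GC content and transcript length, 8157 genes were called, 4614 higher and 3543 lower, and 6534 of the 9920 calls kept their sign and their call. Gene lists whose count in a direction moved by over 1.5 times with these offsets are given below with both counts. Changes of single genes are given without the offsets unless said otherwise. Of 518 called list members 385 kept their sign and call with the offsets, so not every single change named below did.

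**Figure D2:**
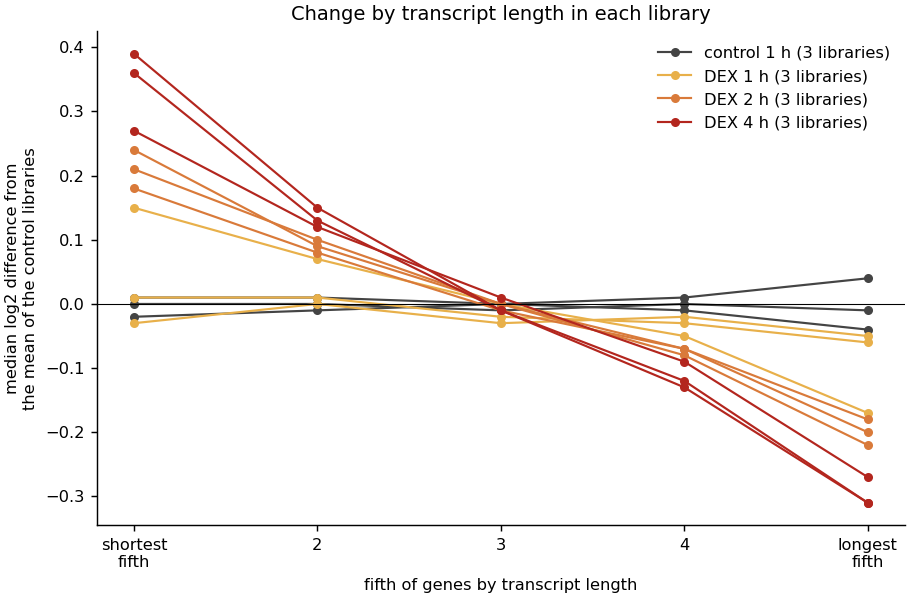
Median log2 difference from the mean of the control libraries (vertical axis) in 5 equal classes of genes ordered by annotated transcript length (horizontal axis), 1 line for each of the 12 libraries. The DEX 4 h lines run from between 0.27 and 0.39 for the shortest genes to between −0.31 and −0.27 for the longest, and the control lines stay within 0.04 of zero.

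The locus of DOF2.1 itself, AT2G28510, gave 88.3, 88.3 and 79.4 CPM in the control and 55.0, 56.1 and 43.5 CPM at DEX 4 h. The groups did not overlap and the change was −0.73 ± 0.10 (adjusted p = 2.89e-05). Reads of the native gene and of the transgene cannot be told apart in these counts, and a glucocorticoid receptor fusion is switched by its place in the cell, so this level does not measure induction. TRN2 gave 22.5, 23.3 and 23.5996 CPM in the control and 40.4, 39.0 and 41.3 CPM at DEX 4 h. It rose by 0.80 ± 0.10 (adjusted p = 1.05e-05), with no overlap. Against the same control libraries the TRN2 change was 0.69 at DEX 1 h and 0.65 at DEX 2 h. Between DEX 4 h and DEX 1 h, a comparison that called 48.6% of genes, the TRN2 difference was 0.10 (adjusted p = 0.404). The 1 h and 2 h values given here and below share the control libraries with the 4 h comparison and are set beside it as values only. At 1 h, where treated and control samples have the same label time, 9.62% of genes were called, and at 2 h 35%.

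Of 14 tetraspanin genes tested 4 rose and 1 fell, with a median log2 change of 0.11, against 0.0003 over all genes tested. The share that rose, 28.6%, was near the 24.7% of all genes, and 35.7% of the family was called against 50.3% of all genes. Next to TRN2, TET6 rose from 40.4, 45.6 and 46.5 CPM to 73.3, 68.5 and 67.4 CPM, by 0.66 (adjusted p = 7.7e-06). TET6 was also higher at 1 h, by 0.55. TET10, whose counts were not whole, rose by 0.37 and TET9, near 1 CPM in the control, fell by 1.25. With the offsets for GC content and length 3 tetraspanins were called higher and 3 lower.

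Among the DOF factors, 29 of which were tested, 7 rose and 13 fell, with a median of −0.44. The share that rose, 24.1%, was near the 24.7% of all genes, and 44.8% fell against 25.6% of all genes. The largest rise was that of AT1G26790, a Dof-type zinc finger gene, from 0.468, 0.591 and 0.427 CPM to 2.96, 4.19 and 4.56 CPM, by 2.96 ± 0.27 (adjusted p = 5.16e-07). AT2G34140 rose by 1.17 and AT1G29160 by 0.97. All 3 were higher at 1 h too, by 2.74, 2.44 and 1.32. OBP1 fell by 1.27, DOF2.4 by 1.05 and OBP2 by 1.00. For these 3 the 1 h changes were −0.19, −0.36 and 0.21, none of them called. The summed level of the DOF list was 346.9 to 382.5 CPM in the control and 293.6 to 305.7 CPM at 4 h. Counts of OBP2 were not whole.

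Among called genes whose groups did not overlap and whose mean log2 CPM reached 1, those of very low level in the control led the increases. AT4G16810, whose product carries a VEFS-box as in polycomb proteins, had 0.351, 0.236 and 0.122 CPM in the control and 16.9, 14.7 and 18.4 CPM at DEX 4 h. Its counts were 6, 4 and 2 against 229, 231 and 266. The change of 6.08 ± 0.29 (adjusted p = 7.81e-10) was the largest among these genes. It was 3.31 at 1 h and 5.03 at 2 h, both called. AT1G26680, a B3-family transcription factor, went from 6.32, 4.79 and 6.28 CPM to 48.3, 49.0 and 58.5 CPM, by 3.16 ± 0.15 (adjusted p = 1.59e-09). This gene also rose at 1 h, by 1.01.

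Heat shock proteins took 4 further places among the 10 largest increases chosen in this way. They are chaperones that bind unfolded proteins. HSP17.4 rose from 3.51, 3.13 and 6.16 CPM to 41.03, 39.5 and 70.7 CPM, by 3.56 ± 0.35 (adjusted p = 3.52e-05). HSP17.6A rose by 3.19 and AT1G53540, an HSP20-like chaperone, by 3.08. An Hsp70-family gene, AT4G32208, rose by 3.82. None of these 4 was called at 1 h, where their changes were −1.11, −0.90, −0.90 and 0.77. The other members of the 10 were CYS2, a phytocystatin that inhibits cysteine proteases, with a rise of 3.4. NPQ4, which dissipates excess light energy at photosystem II, rose by 3.09. AT5G24570, which has no annotated function, rose by 3.98. AT1G69572, a non-coding RNA on the strand opposite the DOF gene AT1G69570, had 0, 0 and 1.098 CPM in the control and 4.88, 6.34 and 7.05 CPM at 4 h. Counts of AT1G69572, AT4G32208 and NPQ4 were not whole.

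The largest decrease by the same choice was that of AT2G38240, annotated as a 2-oxoglutarate-dependent oxygenase. It had 18.4, 13.8 and 15.9 CPM in the control and 0.517, 1.02 and 0.967 CPM at DEX 4 h. The change was −4.23 ± 0.42 (adjusted p = 2.01e-05). At 1 h the gene was not called, with a value of 0.65. Below that level, AT5G14820, picked with its values known, had 50, 17 and 41 counts in the control and none at DEX 4 h, at least 31.3-fold lower with a floor of 3 counts over the DEX 4 h group. PAN, a bZIP transcription factor known for setting floral organ number, went from 10.5, 9.52 and 9.09 CPM to 0.739, 1.02 and 0.691 CPM. It fell by 3.55 ± 0.20 (adjusted p = 2.81e-09), and its changes at 1 h and 2 h were −2.01 and −2.61, both called. Another gene with most of its change at 1 h was AT1G62500, of the lipid-transfer protein superfamily, with −2.27 at 1 h and −2.79 at 4 h.

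LTI78, also known as RD29A and induced by drought and cold, fell from 125, 86.3 and 134 CPM to 15.3, 10.5 and 17.41 CPM, by 3.01 ± 0.34 (adjusted p = 0.000117). GAD4, which makes γ-aminobutyrate from glutamate, fell by 3.36. AT5G62360, a pectin methylesterase inhibitor family gene, fell by 3.11. The potassium transporter HAK5 had 5.68, 5.38 and 19.9 CPM in the control and 0.222, 2.16 and 1.45 CPM at 4 h, with control replicate 3 far above the others. Its fall of 2.96 ± 0.90 (adjusted p = 0.0241) was no longer called without that library, with a change of −2.07 and an adjusted p of 0.0718. AT1G30730, AT5G62330 and AT1G66930 complete the 10, with decreases of 2.79, 2.75 and 2.75. Counts of PAN, GAD4 and these last 3 genes were not whole.

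**Figure D3:**
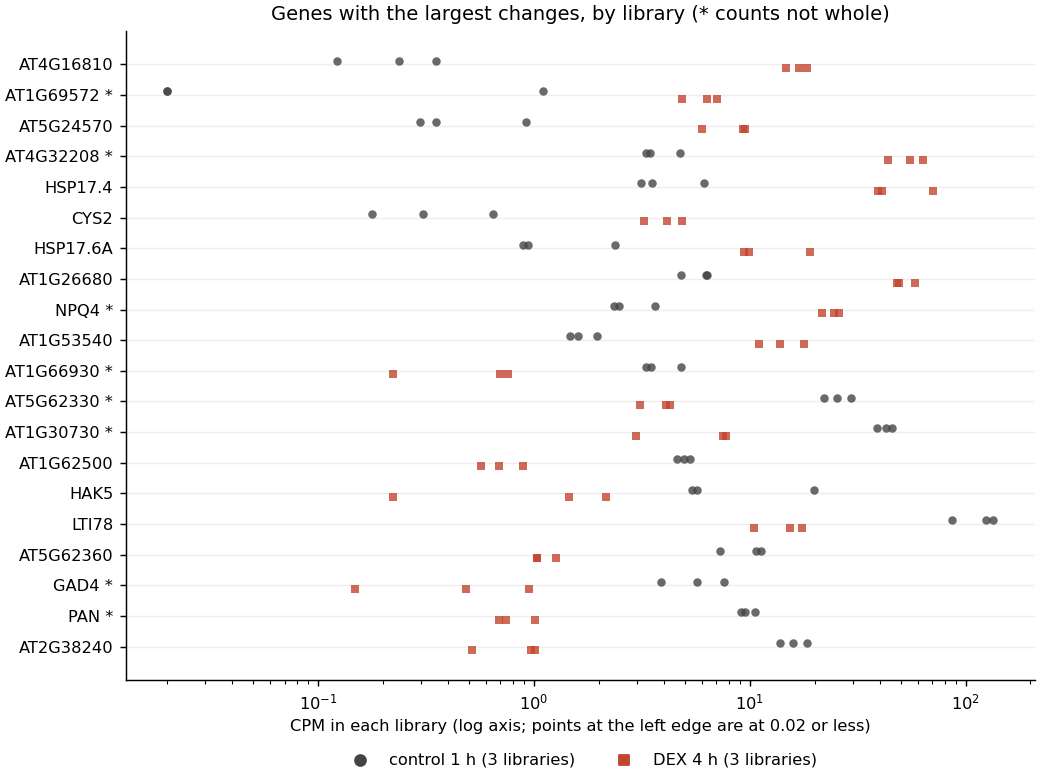
CPM (log axis) of the genes that rose most (10) and fell most (10) in each of the 3 control 1 h libraries (circles) and 3 DEX 4 h libraries (squares); an asterisk marks counts that were not whole. Within each gene the groups do not overlap, a condition of the choice, and HAK5 has 1 control library at 19.9 CPM apart from those at 5.38 and 5.68.

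Among abundant genes, those whose mean log2 CPM reached 7, the cytosolic chaperone gene Hsp70-2 rose most, from 44.1, 50.2 and 68.4 CPM to 366, 408 and 319.99 CPM. The change was 2.75 ± 0.21 (adjusted p = 3.7e-06). AGP10, an arabinogalactan protein of the cell surface, rose by 1.83 and the metallothionein gene MT2B by 1.53. The largest decreases in this class were those of the dehydrin LTI30, at −1.94, the pectin methylesterase inhibitor gene AT5G62340, at −1.92, AT2G32240, annotated as an early endosome antigen, at −1.82, and the nucleoside hydrolase NSH3, at −1.81. NSH3 went from 243, 241 and 203 CPM to 62.5, 64.9 and 68.0 CPM. Counts of Hsp70-2, MT2B, AT5G62340 and AT2G32240 were not whole.

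The promoters of 4 genes are shown because they are the largest rise, the largest fall of a transcription factor, the gene in the title and the auxin carrier described below. Each is the 250 bases before the annotated gene start, 5′ to 3′ on the strand of the gene, as RefSeq annotates assembly TAIR10.1. Capitals mark AAAG, the DOF core, and its reverse complement CTTT. The region of AT4G16810 is chr4:9462254-9462503 on the minus strand. That of TRN2 is chr5:18950593-18950842 on the plus strand. PAN lies downstream of chr1:25772651-25772900 on the minus strand, and PIN2, called EIR1 in RefSeq, of chr5:23100266-23100515 on the plus strand.
AT4G16810: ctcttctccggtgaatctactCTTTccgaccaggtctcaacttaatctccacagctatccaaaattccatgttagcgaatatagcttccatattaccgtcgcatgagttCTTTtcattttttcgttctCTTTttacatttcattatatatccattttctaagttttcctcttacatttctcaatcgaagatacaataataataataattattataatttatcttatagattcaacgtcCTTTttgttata
TRN2: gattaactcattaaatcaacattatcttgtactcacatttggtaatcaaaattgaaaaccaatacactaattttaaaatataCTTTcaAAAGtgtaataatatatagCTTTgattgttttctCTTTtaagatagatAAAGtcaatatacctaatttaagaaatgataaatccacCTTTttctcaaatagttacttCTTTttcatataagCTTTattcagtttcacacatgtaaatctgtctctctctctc
PAN: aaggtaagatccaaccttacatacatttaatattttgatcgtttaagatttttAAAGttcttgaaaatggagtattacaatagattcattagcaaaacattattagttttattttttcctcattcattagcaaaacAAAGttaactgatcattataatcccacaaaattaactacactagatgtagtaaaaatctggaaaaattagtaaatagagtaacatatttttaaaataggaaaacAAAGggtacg
PIN2: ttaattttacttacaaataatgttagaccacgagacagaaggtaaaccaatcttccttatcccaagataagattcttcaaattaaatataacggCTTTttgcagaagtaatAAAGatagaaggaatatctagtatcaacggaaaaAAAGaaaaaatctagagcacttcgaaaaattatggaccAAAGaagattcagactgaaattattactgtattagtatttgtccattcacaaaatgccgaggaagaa

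The core occurs 4 times before AT4G16810, 8 times before TRN2, 3 times before PAN and 4 times before PIN2. It is too short to set promoters apart. On either strand AAAG was present in 99.2% of 605 promoters of genes called higher at least 2-fold, in 97.6% of 806 promoters of genes called lower at least 2-fold, in 98% of 9767 promoters of genes not called and in 97.5% of all 38092 annotated promoters. The mean number per promoter was 4.47, 4.01, 4.13 and 4.05 in the same order. GGGCC, the core of the site II element found before many ribosomal and growth genes, was present in 15.2% of promoters of the higher and 8.56% of the lower genes, against 19.1% of the 19635 promoters of tested genes and 13.9% of all. The Wilson 95% intervals were 12.6% to 18.3% for the higher and 6.82% to 10.7% for the lower genes. Median GC content of the promoters was 31.6% for the higher and 30.4% for the lower genes, against 31.2% for tested genes. The part of base composition in these shares was not tested.

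Other motifs differed less between higher and lower genes. ACGTG, the core of the abscisic acid response element, was in 26.3% and 30.1%, against 20.7% of all promoters. CACGTG, the G-box, which contains ACGTG, was in 8.43% and 8.19%, against 5.37% of all. AATATCT, the core of the evening element, was in 12.2% and 11.2%, against 9.42%. AACCCTA, the telo-box, was in 2.98% and 4.59%, against 7.03%. AACGG, the core of a mitosis-specific activator element, was in 20.8% and 18.9%, against 20.6%, and TTTCCCG, an E2F site, was in 1.16% and 1.99%, against 1.87%. All were counted on both strands, and a match is a description of the letters only. The shares in this paragraph stand beside all promoters and not those of tested genes, which differed for GGGCC. A difference from all promoters is therefore not read as a trait of the higher or lower genes.

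**Figure D4:**
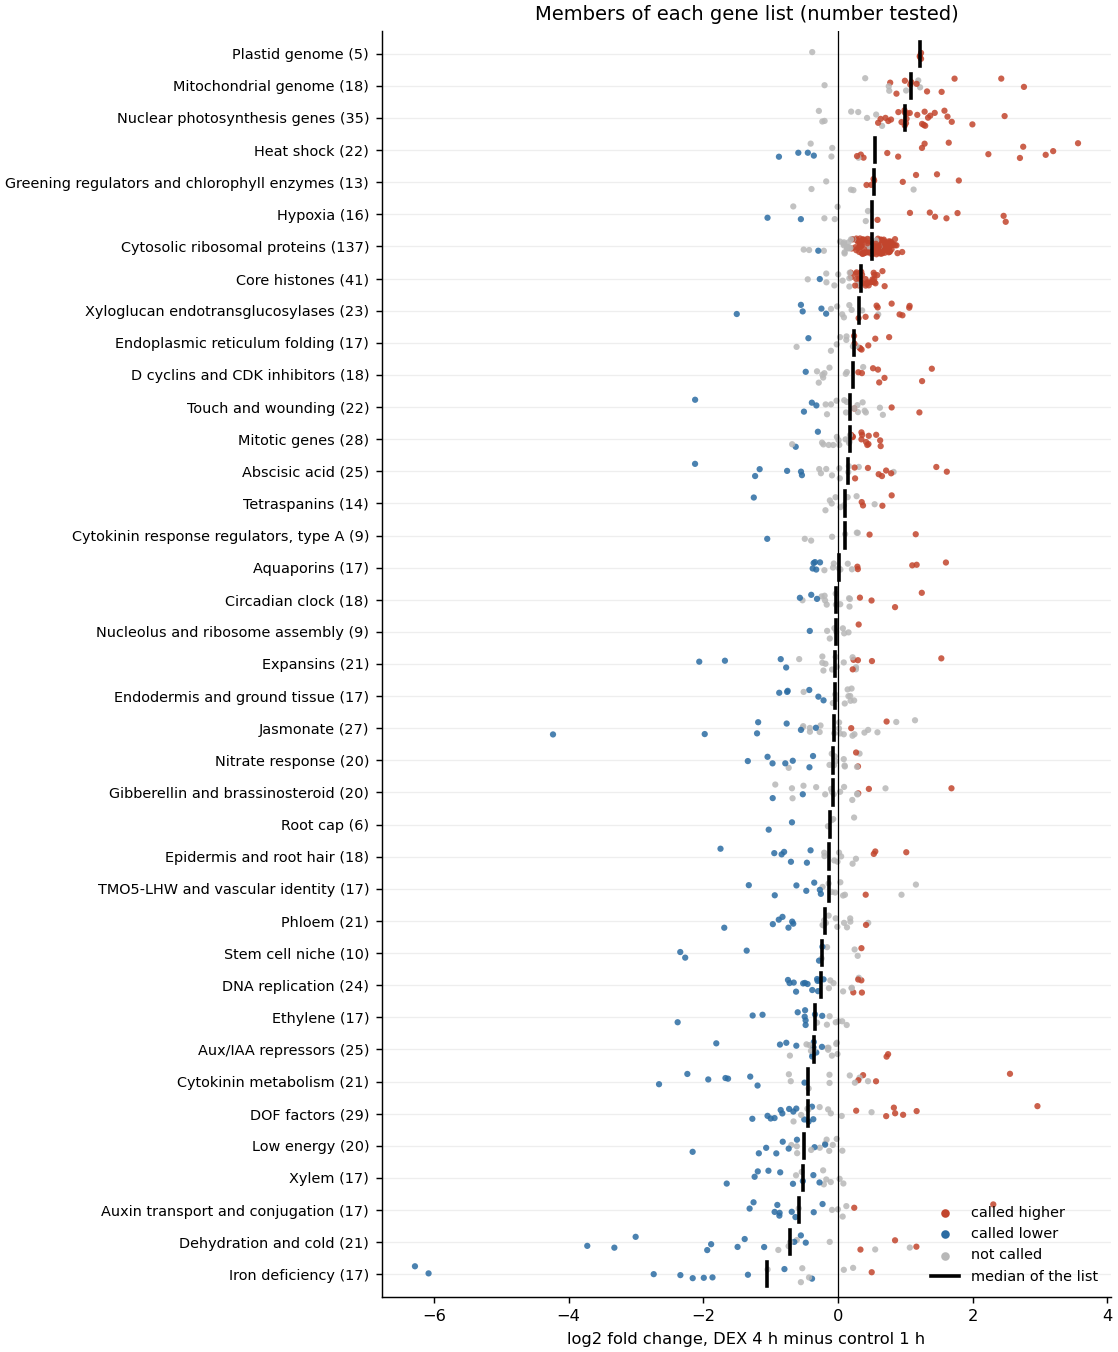
Log2 fold change of DEX 4 h over control 1 h (horizontal axis) of every tested member of the 39 gene lists, ordered by the list median (black bar), with the number tested in parentheses. The iron and the dehydration and cold lists lie lowest, with medians of −1.05 and −0.71, and the photosynthesis list has a median of 0.99; the iron members beyond −6 are at 0 in all DEX 4 h libraries, where the fitted value is no measure of size.

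The counts of list members that follow stand beside 24.7% higher and 25.6% lower over all genes tested. In this bulk RNA, fewer cells of a type and less RNA per cell cannot be told apart. In the epidermis and root hair list 7 of 18 genes fell and 3 rose, with a median of −0.13. WER, a MYB factor that specifies non-hair cells, fell from 33.8, 30.1 and 28.5 CPM to 9.83, 10.2 and 7.46 CPM, by 1.75 ± 0.11 (adjusted p = 9.08e-09). GL3, a partner of WER, fell by 0.95, and RHD6, which promotes root hair formation, by 0.84. All 3 were already lower at 1 h, by −1.66, −1.19 and −1.58 on the log2 scale. The 3 that rose were TRY, RSL1 and MYB23, by 1.01, 0.55 and 0.53, and with the offsets for GC content and length no member of the list was called higher. The list sum was 483.8 to 543.8 CPM in the control and 385.8 to 496.8 CPM at 4 h. Counts of RHD6 and RSL1 were not whole.

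In the stem cell niche list 5 of 10 tested genes fell and 1 rose, with a median of −0.24. With the offsets 3 were lower, with a median of −0.04, and 3 were lower without DEX 4 h replicate 1, without DEX 4 h replicate 3 or without control replicate 3. WOX5, the homeobox gene of the quiescent centre, fell from 5.62, 4.85 and 5.49 CPM to 0.813, 1.02 and 1.45 CPM. The change was −2.27 ± 0.26 (adjusted p = 4.14e-06), with no overlap. BBM, an AP2 factor of the PLETHORA family that maintains the niche, fell by 1.36 and was lower at 1 h by 1.01. ERF115, a factor that triggers division of quiescent cells, had low counts with overlapping groups, and its fall of 2.34 was called in 2 of the 6 fits that left out 1 library. AGL42, whose counts were not whole, was the member that rose, by 0.35. The list sum went from 131.3 to 149.8 CPM in the control to 118.8 to 122.4 CPM. In the root cap list 2 of 6 genes fell, FEZ, which promotes the divisions that form the cap, by 1.03 and the receptor kinase gene ACR4 by 0.68, and none rose.

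In the endodermis and ground tissue list 6 of 17 genes fell and none rose, with a median of −0.04. The 35.3% called stands against 50.3% of all genes. SCR, which with SHR patterns the ground tissue, fell from 68.7, 62.1 and 66.2 CPM to 42.7, 39.4 and 35.1 CPM, by 0.75 ± 0.08 (adjusted p = 3.14e-06). MGP, a direct target of both, fell by 0.76, and GSO1, a receptor kinase of the Casparian strip barrier, by 0.87. At 1 h MGP and SCR were lower by −1.28 and −0.57, and GSO1 had a value of 0.32 that was not called. Counts of MGP were not whole. The list sum was 761.2 to 867.9 CPM in the control and 732.7 to 794.1 CPM at 4 h.

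In the TMO5-LHW and vascular identity list 7 of 17 genes fell and 1 rose, with a median of −0.14. AHP6, an inhibitor of cytokinin signalling in the protoxylem, fell from 4.45, 3.66 and 3.171 CPM to 0.961, 2.16 and 1.31 CPM, by 1.33 (adjusted p = 0.00057). ACL5, a thermospermine synthase of the xylem, fell by 0.94, and PXY, a receptor kinase of the procambium, by 0.62. The 1 gene that rose was MP, the auxin response factor upstream of TMO5, with 0.41 at 4 h and 0.69 at 1 h. With the offsets for GC content and length 4 of these genes were higher and 3 lower, with a median of 0.02, and PXY was no longer called (adjusted p = 0.117). Counts of AHP6 were not whole.

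In the xylem list 9 of 17 genes fell and none rose, with a median of −0.52. CESA7, a cellulose synthase of the secondary wall, fell from 39.0, 46.8 and 41.3 CPM to 18.3, 20.7 and 14.7 CPM, by 1.24 ± 0.13 (adjusted p = 4.42e-06). CESA8 fell by 1.19, and VND6, the master switch of metaxylem vessels, by 1.65 from about 1 CPM, a call that held in 2 of 6 fits without 1 library. The list sum was 294.3 to 359.4 CPM in the control and 213.2 to 232.9 CPM at 4 h. In the phloem list 7 of 21 genes fell (33.3%) and 1 rose, with a median of −0.19, and 38.1% were called. SUC2, the sucrose transporter of companion cells, fell from 40.7, 47.1 and 45.2 CPM to 11.9, 16.8 and 12.3 CPM, by 1.69 ± 0.15 (adjusted p = 1.68e-06). SEOR1, which makes the protein filaments of sieve elements, fell by 0.97, NAC86 by 0.88, and SMXL3 rose by 0.41 (0.76 at 1 h). The phloem sum was 263.2 to 281.8 CPM in the control and 198.2 to 216.9 CPM at 4 h. With the offsets 8 xylem genes were lower, and 4 phloem genes were lower and 2 higher. None of CESA7, CESA8, VND6, SUC2, SEOR1 and NAC86 was called at 1 h.

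**Figure D5:**
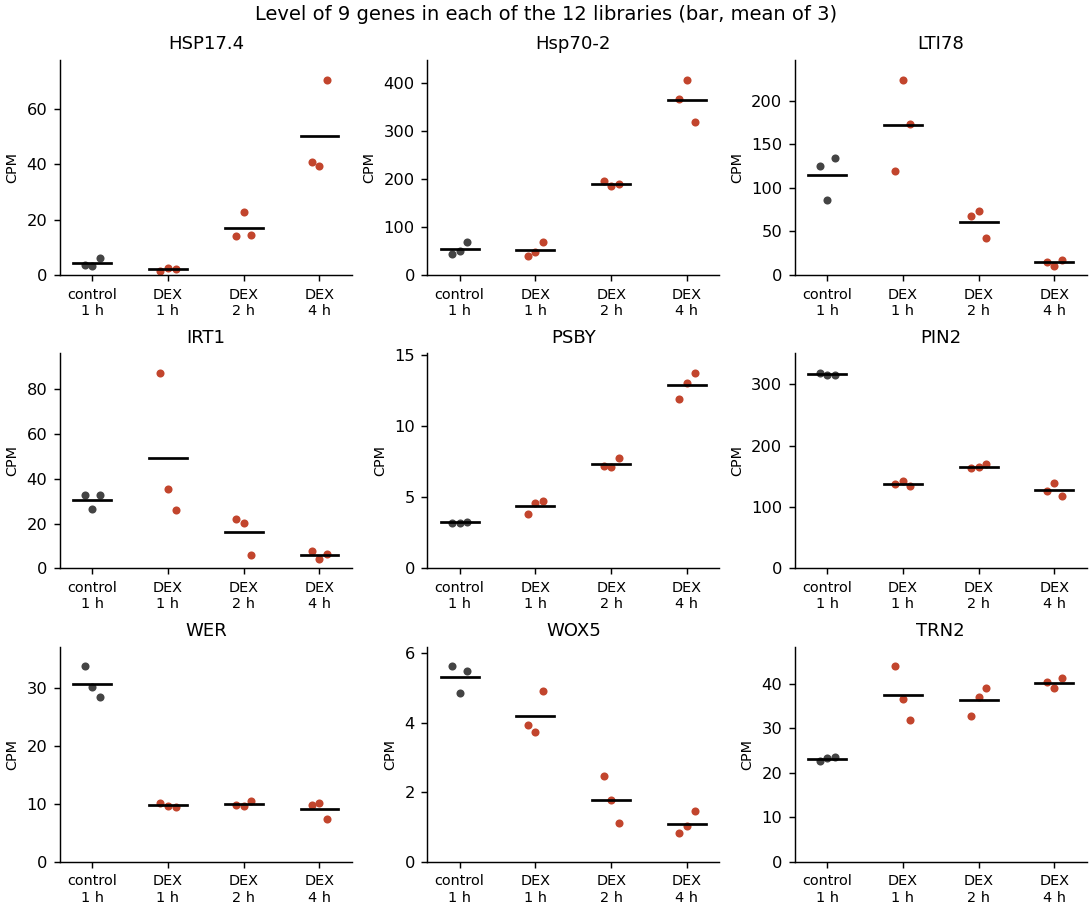
CPM (vertical axes from 0) of 9 genes in each library of the control at 1 h and of DEX at 1, 2 and 4 h, with a bar at the mean of 3 libraries. WER and PIN2 were nearly as low and TRN2 nearly as high at 1 h as at 4 h, whereas HSP17.4, Hsp70-2 and PSBY were highest and LTI78 and WOX5 lowest at 4 h; IRT1, shown for the iron list, was chosen after its values were seen.

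In the cytokinin metabolism list 8 of 21 genes fell and 4 rose, with a median of −0.44. LOG1, one of the enzymes that release active cytokinin, fell from 3.16, 2.95 and 1.77 CPM to 0.222, 0.508 and 0.484 CPM, by 2.66 ± 0.36 (adjusted p = 1.81e-05). LOG3, a target of TMO5-LHW, fell by 1.93 and was lower at 1 h by 1.67, and LOG5, under 1 CPM in every control library, fell by 2.24. CKX7, a cytokinin oxidase, rose from 1.58, 1.71 and 2.01 CPM to 9.83, 12.8 and 8.50 CPM, by 2.55 ± 0.19 (adjusted p = 6.83e-08). Its change at 1 h was 1.70. CYP735A1, which makes trans-zeatin, and CKX6 rose by 0.56 and 0.37. With the offsets 6 genes of the list were higher and 7 lower, and without DEX 4 h replicate 1, control replicate 1 or control replicate 2 the number higher was 2, 2 and 1. Of 9 type-A response regulators, which are quick targets of cytokinin, ARR3 and ARR9 rose by 1.15 and 0.47 and ARR7 fell by 1.05, with a median of 0.10. Without control replicate 3 the number higher was 4. ARR3 in control replicate 3 was at 23.5 CPM, against 9.19 and 11.1 CPM in the other control libraries. Counts of CKX6 were not whole.

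In the transport and conjugation list 10 of 17 genes fell and 2 rose, with a median of −0.58. PIN2, the auxin efflux carrier of the epidermis and cortex, fell from 318, 316 and 315 CPM to 126, 138 and 117 CPM, by 1.31 ± 0.07 (adjusted p = 1.35e-09). The change at 1 h was −1.20. PIN4, a carrier of the root tip centre, fell by 0.94 but had a value of 0.01 at 1 h. GH3.3, which conjugates auxin to amino acids, fell by 1.26 with overlapping groups. GH3.9, of the same enzyme family, rose by 2.31 from under 1 CPM, and the influx carrier LAX3 by 0.24. With the offsets 7 genes were lower and 3 higher. The list sum was 991.3 to 1014 CPM in the control and 643.1 to 736.8 CPM at 4 h.

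Among the Aux/IAA repressors 11 of 25 genes fell and 2 rose, with a median of −0.36. IAA33 fell by 1.81 (adjusted p = 3.53e-06) and by 1.54 at 1 h. IAA3 and IAA19 fell by 0.86 and 0.77, and their values at 1 h were 0.02 and 0.28, not called. IAA20 and IAA31 rose by 0.74 and 0.72, each called in 2 of the 6 fits without 1 library, and with the offsets none was called higher and 12 were lower. Counts of PIN4 and IAA20 were not whole.

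Of 17 ethylene genes 10 fell and none rose, with a median of −0.34, and with the offsets 6 were lower. ACS7, an enzyme that makes the ethylene precursor, fell from 8.08, 13.9 and 10.0 CPM to 2.29, 1.84 and 2.00 CPM, by 2.38 ± 0.28 (adjusted p = 1.3e-05). ACS11 fell by 1.27, and EBF2, an F-box protein that removes the ethylene factor EIN3, by 1.12. In the abscisic acid list 9 of 25 genes rose and 6 fell, with a median of 0.15. The receptor gene PYL2 rose from 3.28, 2.78 and 3.11 CPM to 9.09, 8.63 and 7.53 CPM, by 1.46 ± 0.20 (adjusted p = 1.81e-05). AHG1, a phosphatase that blocks the pathway, rose by 1.61 and the receptor gene PYL6 by 0.79. HAI3, a phosphatase gene induced by abscisic acid, fell by 2.12, and CYP707A3 and CYP707A1, which break the hormone down, by 1.23 and 1.16. Counts of the CYP707A genes were not whole.

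In the jasmonate list 7 of 27 genes fell (25.9%) and 2 rose, with a median of −0.06, and with the offsets 8 were lower and 1 higher. Beside AT2G38240, AOC2, an allene oxide cyclase of jasmonate synthesis, fell from 9.66, 9.10 and 8.11 CPM to 2.29, 2.03 and 2.49 CPM, by 1.98 (adjusted p = 7.33e-07), though it was higher at 1 h by 0.73. AT5G05600, another 2-oxoglutarate-dependent oxygenase, fell by 1.2. In the gibberellin and brassinosteroid list 3 of 20 genes rose and 2 fell, with a median of −0.08. GA20OX2, of gibberellin synthesis, rose by 1.68 from under 1 CPM, and GA2OX6, which inactivates gibberellin, fell by 0.97. With the offsets 6 of these were higher and 3 lower, and without control replicate 3 the number higher was 7. Counts of AOC2 were not whole.

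Mitotic genes rose more often than they fell, and genes of DNA replication fell more often than they rose. In the mitotic list 13 of 28 genes rose and 2 fell, with a median of 0.17, and the same counts were found with the offsets. Without control replicate 3 the number lower was 4, and without control replicate 1 it was 1. CDC20.1, an activator of the anaphase-promoting complex, rose from 118, 111 and 109 CPM to 176, 169 and 179 CPM, by 0.63 ± 0.07 (adjusted p = 4.74e-06). The Aurora kinase gene AUR2 rose by 0.62 and CDC20.2 by 0.57. None of these 3 was called at 1 h, with values of −0.19, −0.06 and −0.15. CYCA2;2 and CDKB1;1 fell, by 0.63 and 0.30. In the DNA replication list 13 of 24 genes fell and 4 rose, with a median of −0.25. ICU2, the catalytic subunit of DNA polymerase alpha, fell from 52.9, 45.1 and 42.4 CPM to 28.1, 30.4 and 25.3 CPM, by 0.74 (adjusted p = 0.000231). CDC45 and ORC1B, of the replication origin, fell by 0.72 and 0.66, and PCNA1, the sliding clamp, and RNR2A, which makes nucleotides, each rose by 0.35. With the offsets 5 replication genes were lower and 2 higher, with a median of 0.03. Counts of the CDC20 genes, AUR2 and ORC1B were not whole.

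Of 18 D cyclins and inhibitors of cyclin-dependent kinases 8 rose and 1 fell, with a median of 0.22. CYCD6;1, which drives the divisions that form cortex and endodermis, rose from 1.17, 0.768 and 0.366 CPM to 2.51, 1.97 and 1.66 CPM. The change was 1.39 ± 0.33 (adjusted p = 0.00243), and it was 1.69 at 1 h. CYCD4;2 rose by 1.25 and the inhibitor gene KRP3 by 0.69, and CYCD2;1 fell by 0.48. With the offsets 6 were higher and 3 lower. Counts of KRP3 and CYCD2;1 were not whole.

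Most genes of cytosolic ribosomal proteins rose. Of 137 tested, 113 rose and 1 fell, with a median of 0.50, and their summed level went from between 48770 and 49170 CPM to between 68020 and 74070 CPM. The largest changes were those of AT3G06680 and AT3G06700, both L29e family genes, at 0.95 and 0.88, and AT3G47370, of the S10p family, at 0.87. The 1 that fell was AT5G47940, at −0.29. With the offsets 75 were higher and 2 lower, with a median of 0.24. These messages are short, and many members are near-identical pairs whose reads the counting may have split. By contrast, of 9 genes of the nucleolus and ribosome assembly NOP56 rose by 0.31, CBF5 fell by 0.42 and the other 7 were not called. Of 41 core histone genes, also short, 30 rose and 1 fell, with a median of 0.34. HTA13 rose by 0.69, HTA8 by 0.66 and HTA12 by 0.58, and AT3G53650 fell by 0.27. With the offsets 6 histone genes were higher and 6 lower, with a median of 0.05. Counts of the 3 ribosomal genes that led, HTA13, HTA8 and AT3G53650 were not whole.

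In the heat shock list 14 of 22 genes rose and 4 fell, with a median of 0.55, and the offsets left 14 higher and 2 lower. Next to the small chaperones and Hsp70-2 described above, the 4 that fell were regulators or co-chaperones. They were DREB2A, HSFB1, BAG6 and HSFB2A, with changes of −0.88, −0.59, −0.45 and −0.36. DREB2A and HSFB1 encode transcription factors that heat induces. In the endoplasmic reticulum list 8 of 17 genes rose and 1 fell, with a median of 0.24. The number higher was 5 without DEX 4 h replicate 2 and 4 without control replicate 1 or control replicate 2. SDF2 rose from 116, 123 and 138 CPM to 181, 184 and 188 CPM, by 0.55 ± 0.08 (adjusted p = 4.47e-05), and PDIL1-2, a disulfide isomerase, by 0.45. BZIP28, a sensor of unfolded proteins, fell by 0.44. Counts of DREB2A and HSFB1 were not whole. HSFB2A was the fourth by size and was chosen after its values were seen.

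The dehydration and cold list fell, with 11 of 21 genes lower and 3 higher, a median of −0.71 and the same counts with the offsets. Its sum went from between 3552 and 3625 CPM to between 2029 and 2579 CPM. Beside LTI78 and LTI30, the galactinol synthase genes GOLS2 and GOLS4 were called lower, with DEX 4 h values of 0, 0 and 0.207 CPM and of 0, 0 and 0.0691 CPM. Too few counts remained for a fold. KIN2, GOLS1 and P5CS1 rose, by 1.16, 0.85 and 0.33. In the hypoxia list 8 of 16 genes rose and 2 fell, with a median of 0.51. PDC1, a pyruvate decarboxylase of fermentation, rose from 5.44, 6.32 and 5.49 CPM to 19.7, 19.8 and 19.6 CPM. The change was 1.77 ± 0.15 (adjusted p = 2.52e-07), and it was 0.89 at 1 h. PCO2, an oxygen-sensing cysteine oxidase, rose by 2.49 and AT4G10270, of a wound-responsive family, by 2.46, both from under 1 CPM. SRO5 and SUS1 fell by 1.05 and 0.55. Counts of KIN2, P5CS1, SRO5 and SUS1 were not whole.

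Of 22 touch and wounding genes 3 rose and 4 fell, with a median of 0.18. The number higher was 9 without DEX 4 h replicate 1, none without DEX 4 h replicate 2 or control replicate 2, and 1 without DEX 4 h replicate 3 or control replicate 1. TCH3, a calmodulin-like protein, fell from 150, 166 and 119 CPM to 23.58, 38.8 and 37.2 CPM, by 2.12 ± 0.17 (adjusted p = 2.29e-06), while TCH4 and WRKY18 rose by 0.80 and 1.21 with overlapping groups. Of 18 clock genes 4 rose and 3 fell, with a median of −0.03. PRR7, a morning repressor, rose from 5.09, 3.84 and 5.00 CPM to 10.6, 11.2 and 11.3 CPM, by 1.24 ± 0.14 (adjusted p = 3.67e-06). RVE8 and LNK2, partners in activating evening genes, rose by 0.85 and 0.50, and LHY, LUX and TOC1 fell by 0.57, 0.40 and 0.31. None of these 6 was called at 1 h, and with the offsets 6 clock genes were higher and none was lower. Without DEX 4 h replicate 3 the number lower was 1. Counts of TCH3, WRKY18, RVE8, LNK2, LHY and LUX were not whole.

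In the iron deficiency list 10 of 17 genes fell and 1 rose, with a median of −1.05, and the same counts were found with the offsets. BHLH38, a factor that switches on iron uptake, fell from 2.69, 2.36 and 1.89 CPM to 0.0739, 0.634 and 0.276 CPM, by 2.74 ± 0.52 (adjusted p = 0.00051). BHLH100, of the same group, had 12, 7 and 7 counts in the control libraries and none at DEX 4 h. It was at least 7.52-fold lower, with a floor of 3 counts over the DEX 4 h group. AT3G12900, a 2-oxoglutarate-dependent oxygenase gene, had 12, 14 and 4 counts and none, at least 8.68-fold lower on the same floor, a call that held in 2 of 6 fits without 1 library. With these 2 genes set to their bounds the median stayed at −1.05. FER1, a ferritin that stores iron, rose by 0.50. IRT1, the iron transporter of the root surface, had 32.6, 26.7 and 32.7 CPM in the control and 7.76, 4.12 and 6.43 CPM at 4 h (change −2.34, adjusted p = 0.0151). Counts of FER1 and IRT1 were not whole.

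In the nitrate list 7 of 20 genes fell (35%) and 2 rose, with a median of −0.08, and 45% were called. The number higher was 1 without DEX 4 h replicate 3 and 4 without control replicate 3. The nitrate reductase gene NIA1 fell from 296, 314 and 265 CPM to 92.3, 129.6 and 123 CPM, by 1.34 ± 0.15 (adjusted p = 2.01e-05). NPF6.3, a nitrate transporter and sensor, fell by 1.05 and BT1 by 0.97, and RFNR1 and TGA4 rose by 0.30 and 0.27. Of 20 low energy genes, which sugar starvation induces, 9 fell and none rose, with a median of −0.50. ASN1, an asparagine synthetase, fell from 61.3, 84.8 and 74.3 CPM to 19.8, 18.7 and 10.8 CPM, by 2.16 ± 0.26 (adjusted p = 0.000123). GDH2, a glutamate dehydrogenase, fell by 1.07 and SEN1 by 1.18. None of NIA1, NPF6.3, ASN1, GDH2 and SEN1 was called at 1 h. Counts of RFNR1, TGA4, ASN1, GDH2 and SEN1 were not whole.

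Nuclear photosynthesis genes rose from low levels. Of 35 tested 27 rose and none fell, with a median of 0.99, and with the offsets 23 rose. The list has 43 members, and 8 did not pass the filter on low counts. The summed level went from between 156.3 and 197.9 CPM to between 350.7 and 413 CPM. PSBY, a subunit of photosystem II, rose from 3.22, 3.19 and 3.29 CPM to 11.9, 13.1 and 13.8 CPM, by 2.00 ± 0.13 (adjusted p = 1.1e-08). The photosystem I genes PSAH2 and PSAD1 rose by 2.47 and 1.69. At 1 h these 3 had values of 0.44, −0.10 and 0.33, none called. Of 13 greening regulators and chlorophyll enzymes 8 rose and none fell, with a median of 0.53, among them PORB, which makes chlorophyllide in light, at 1.79, GUN4 at 1.47 and CRD1 at 1.16. The groups overlapped for GUN4, and counts of CRD1 were not whole.

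The called transcripts of the organelle genomes were higher at 4 h too, and so was the share of nuclear ribosomal RNA. Whether they moved together with the photosynthesis genes was not tested. The annotation used here gives organelle loci no names. Ribosomal RNA of the organelles is therefore not told apart from their messenger RNA, and no rise of organelle messenger RNA is read from these calls. Of 146 loci of the mitochondrial genome 18 passed the filter, of which 11 were called higher and none lower, with a median of 1.08. Without DEX 4 h replicate 3 the number was 7. Of 133 loci of the plastid genome 5 passed, of which 4 were called higher and ATCG00190 was not called (change −0.38, adjusted p = 0.29). ATCG00920 and ATCG01210 have identical values in each of the 6 libraries, as do ATCG00950 and ATCG01180, so these 4 calls are 2 measurements, each counted again. ATCG00920 had 9.66, 10.8 and 13.2 CPM in the control and 24.2, 18.4 and 36.5 CPM at 4 h. ATMG01190 rose by 1.73, and ATMG00410 and ATMG00516, with single libraries at or near 0, were each called in 3 of the 6 fits without 1 library. The 4 nuclear ribosomal RNA loci took 0.232%, 0.246% and 0.236% of counts in the control libraries and 0.571%, 0.426% and 0.865% in the DEX 4 h libraries. AT2G01021, an uncharacterized locus next to ribosomal RNA genes on chromosome 2, went from 145.5, 159.1 and 161.8 CPM to 429.5, 293.6 and 626.7 CPM, by 1.53. DEX 4 h replicate 3 had the highest and replicate 2 the lowest of the 3 values in each of these measures except ATCG00190. Libraries were made with a kit that selects messenger RNA, and the part that carried-over or degraded RNA has in these and other changes was not tested. Counts of the 4 called plastid loci, ATMG01190, ATMG00410 and ATMG00516 were not whole.

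Called genes of cell wall loosening and water transport lay in both directions, as did the called genes among all tested. Of 23 xyloglucan endotransglucosylase genes, whose products cut and rejoin wall polymers, 10 rose and 5 fell, with a median of 0.31. XTH9 rose from 32.1, 30.3 and 29.6 CPM to 63.5, 66.3 and 61.5 CPM, by 1.06 ± 0.07 (adjusted p = 1.18e-08), and by 1.22 at 1 h. XTH24 rose by 1.06, XTH28 by 0.96 and XTH32 fell by 1.5. The number lower was 1 to 3 in each of the 6 fits without 1 library. Of 21 expansin genes 5 rose (23.8%) and 4 fell (19%), with a median of −0.04. These shares were near or under the 24.7% higher and 25.6% lower of all genes. EXPA10 rose by 1.53, and EXPA12 and EXLB1 fell by 2.06 and 1.68. With the offsets 3 expansins were higher and 6 lower, and the number higher was 3 without DEX 4 h replicate 1 or 2 and 2 without control replicate 1. Of 17 aquaporins 5 rose (29.4%) and 5 fell (29.4%), near the shares of all genes, with a median of 0.01. The number lower was 3 without DEX 4 h replicate 1 or 3 and without control replicate 2 or 3. The rises were the larger, with PIP2;8 at 1.60, PIP2;5 at 1.17 and PIP1;4 at 1.1, and the largest fall was −0.38, of PIP2E, with overlapping groups. PIP2;8 went from 12.7, 13.1 and 11.6 CPM to 37.5, 38.1 and 38.1 CPM (adjusted p = 2.54e-09). Counts of XTH9, XTH32, EXPA10, PIP2;8 and PIP1;4 were not whole.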

How the data were processed

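RNA-seq was made from 12 samples, and all 12 entered 1 fit, of which the 3 DEX 4 h and 3 control 1 h libraries were compared. The authors deposited expected counts, that is, estimated counts per locus, with no header. The submitters' processing notes name CASAVA, GSNAP, HTSeq, edgeR and the build TAIR10, without roles, versions or settings, and the annotation and strand setting are not given in the sources used here. Between 82.5% and 83.6% of values were whole in each library. Counts were rounded and tested with edgeR 4.0.16 in R 4.3.3 (filterByExpr, minimum count 10, TMM factors, robust quasi-likelihood fit with group as its only term, Benjamini-Hochberg adjustment, 8 residual degrees of freedom, common biological coefficient of variation 8.8%). The test was first run on simulated counts with 200 genes changed and no trend with transcript length. Since these data differ in both respects, that run does not bear on how many of the calls here are right. Alternatives included DESeq2 1.42.0 and offsets fitted with mgcv 1.9.3. Names, lengths and promoters came from RefSeq TAIR10.1, which matched 28009 loci; the 766 others, with 0.258% of counts, stayed in.

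The members, the 39 lists and the tests were chosen with earlier results of these data known. Genes named are DOF2.1, TRN2, the 10 genes per direction with the largest change among called genes without overlap whose mean log2 CPM reached 1, the 4 per direction where it reached 7, and up to 3 called members per list and direction. Any other gene is said to be picked with its values known. The labels speak of biological repeats without saying what was separate, so p-values measure only the spread between these samples. Intervals cover counting error only.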

Additional observations from a re-analysis of the deposited data

Results flagged for a closer look

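For 27 of the 30 genes named for their size of change, the change at DEX 4 h differed from that at DEX 1 h in edgeR's quasi-likelihood test of DEX 4 h against DEX 1 h, in which the control libraries cancel out and which called 48.6% of all genes. The largest adjusted p among them was 0.0224, that of HAK5. Elapsed time is part of each difference. All of the 30 genes but DOF2.1 and TRN2 were chosen for large changes in the same DEX 4 h libraries. That choice favoured a difference from DEX 1 h, so the 27 of 30 cannot be weighed against the 48.6% of all genes.

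On the log2 scale, 13 genes were higher at 4 h than at 1 h. The differences were 4.67 for HSP17.4, 4.09 for HSP17.6A, 3.98 for AT1G53540, 3.05 for AT4G32208, 2.80 for Hsp70-2 and 2.78 for AT4G16810. They were 2.63 for AT5G24570, 2.3 for CYS2, 2.16 for AT1G26680, 2.15 for NPQ4, 1.64 for AT2G01021, 0.98 for MT2B and 0.52 for AGP10. At 1 h HSP17.4, HSP17.6A and AT1G53540 had changes of −1.11, −0.90 and −0.90 against the control, none of them called.

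Another 14 genes were lower at 4 h than at 1 h. The differences were −4.89 for AT2G38240, −3.59 for LTI78, −3.56 for GAD4, −3.34 for AT5G62360, −3.02 for HAK5, −2.83 for AT1G30730 and −2.52 for LTI30. They were −2.27 for AT5G62330, −1.88 for AT2G32240, −1.84 for AT1G66930, −1.54 for PAN, −1.29 for AT5G62340, −1.18 for NSH3 and −0.39 for AT2G28510, the DOF2.1 locus. For TRN2, AT1G69572 and AT1G62500 no difference between 4 h and 1 h was called, with values of 0.10, 0.65 and −0.52.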

How the results depend on the processing

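The number of genes called at 4 h stayed within 1.5 times the reported 9920 under every alternative run. It was 9921 with DESeq2 size factors, 9882 with library totals, 9705 with no filter, 9841 with a filter at 1 CPM in 3 libraries, 9916 with the 6 libraries alone, 9275 with DESeq2, 7211 at an adjusted p under 0.01, and 8478 to 9328 in the 6 fits that left out 1 replicate. Library totals moved the split to 4108 higher and 5774 lower, with the median of all genes at −0.057. The replicate block gave 9993 calls and 8095 together with offsets for GC content and length. Same-numbered DEX 4 h and control libraries had deviations correlated at 0.179, −0.015 and 0.191. Replicates 1 and 3 correlated best with their own number and replicate 2 did not. Crossed values were −0.205 for DEX 4 h replicate 3 with control replicate 1 and −0.176 for DEX 4 h replicate 1 with control replicate 3. These values do not settle whether repeat numbers pair samples, and the main fit had no term for pairing. None of the 30 genes named for the size of their change changed sign. HAK5 was not called in 7 of its 16 alternatives, among them the replicate block (adjusted p = 0.0577), and the others of the 30 kept their call. Of 518 called list members 385 were called with the same sign under the offsets and 409 in all 6 fits without 1 library. Differences in motif shares moved by less than their interval in a window of 300 bases. Counts of list members moved by over 1.5 times in 159 cases and by less in 1089; the cause was not tested.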
